A study of Schizosaccharomyces pombe
Saccharomyces cerevisiae with 24 samples.

Results

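Total RNA from budding yeast that never received 4-thiouracil (4sU) was compared at 60 and at 20 min after galactose addition. The 4 libraries were those the labels place in the total fraction without 4sU, with 2 replicates per time, of 24 libraries in the series. The cells were diploid Saccharomyces cerevisiae of the W303 background, grown in rich medium with raffinose before galactose was added, and every group used here shares this history. At each time the study divided a part of the culture into flasks with and without 4sU, a modified uracil taken up into new transcripts, and pulled labeled RNA out of a part of each preparation. The libraries compared were total RNA without 4sU (the main groups), total RNA with 4sU, and the unlabeled flow-through of the pull-down without 4sU, each with 2 libraries at 20 min and 2 at 60 min. Labeled Schizosaccharomyces pombe cells had been mixed in before RNA isolation, including into the cultures without 4sU. No culture without galactose is part of these groups, so the values describe the interval between the times and not the response to galactose addition itself.

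In budding yeast, raffinose is a poor carbon source that neither induces nor strongly represses the galactose genes, and galactose switches on the permease and enzymes that bring this sugar into glycolysis. Total RNA is the pool left by synthesis and decay together. A level measured in it can therefore change through either process. Most of this pool is ribosomal RNA, which the study depleted, and the remainder holds messenger RNAs, mitochondrial transcripts, and stable noncoding RNAs such as the small nucleolar RNAs (snoRNAs) that guide the modification of ribosomal RNA.

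Levels are given as S. pombe-normalized counts, which are read counts of a feature divided by the library's number of S. pombe reads in units of 2000000. The raw totals of the 4 libraries were similar, from 4380685 to 5725714 counts on S. cerevisiae features. The normalized totals were 4.73 M in replicate 1 and 3.04 M in replicate 2 at 20 min, and 3.50 M and 3.19 M at 60 min. Replicate 1 at 20 min thus stood apart on this scale, and over the 3416 features with a mean of at least 50 its level was higher than that of its partner by a median of 0.60 on the log2 scale. The median difference between 60 and 20 min had opposite signs in the replicates, with -0.13 in replicate 1 and 0.23 in replicate 2. Across the features tested, Pearson's r between replicates was 0.969 at 20 min and 0.978 at 60 min on the log2(normalized count + 1) scale. In these bulk samples, fewer cells and less RNA per cell cannot be told apart. The count files do not pair the systematic gene IDs with names, so markers of diploid cells and of galactose growth were not checked here.

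Between 20 and 60 min, 150 of the 6069 features tested changed, which is 2.47% of them. Of these, 50 rose (0.824% of those tested) and 100 fell (1.65%). The falls were the larger changes. Leaving aside 1 feature in each direction that was listed at 0 in both libraries of a time, the log2 fold changes ran from 1.25 to 2.94 among the rises (median 1.61) and from -6.49 to -1.21 among the falls (median -2.05). Rises of more than 4-fold numbered 8 and none exceeded 8-fold, whereas 50 falls exceeded 4-fold, 18 exceeded 8-fold and 9 exceeded 16-fold. All calls are at an adjusted p under 0.05 by the quasi-likelihood test of edgeR, adjusted by Benjamini-Hochberg. The balance of rises and falls depended on single libraries of 20 min. Without replicate 1 at 20 min there were 89 rises and 55 falls, and without replicate 2 at 20 min there were 30 and 200. The total went down to 67 without replicate 1 at 60 min and to 74 without replicate 2 at 60 min. With TMM scaling, which sets the libraries to a common middle and does not use S. pombe, 572 features changed, with 239 rises and 333 falls, and the same scaling on nuclear reading frames alone gave 280 rises and 313 falls.

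**Figure D1:**
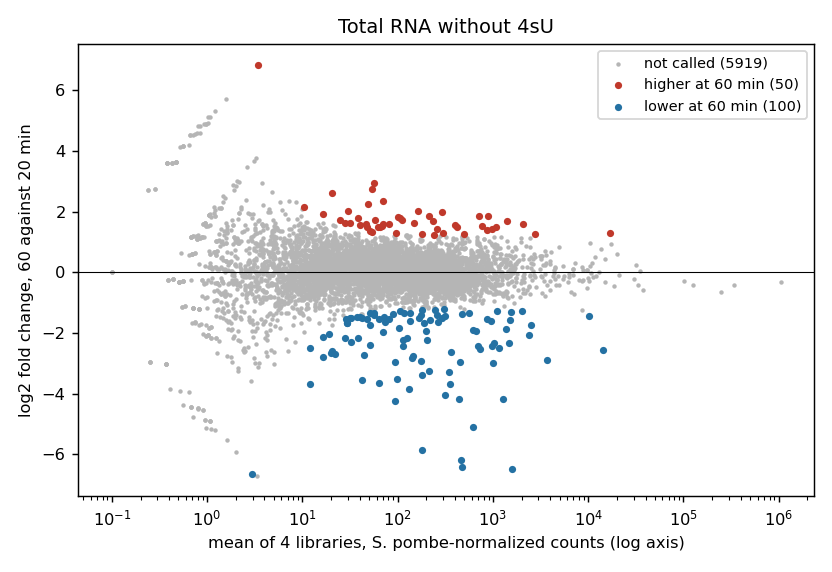
Log2 fold change between 60 and 20 min in total RNA without 4sU against the mean level of each of 6069 features (log axis), with the 50 features that rose in red, the 100 that fell in blue and the rest in gray. The falls have a median of -2.05 and the rises one of 1.61, 18 falls lie beyond 8-fold, and the red point near 7 is the feature listed at 0 in both libraries at 20 min.

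The features that fell had been moderately abundant at 20 min, with a median of 306 normalized counts in replicate 1 and 188 in replicate 2. At 60 min their medians were 47.2 and 36.8. Protein-coding IDs among them held 8.28% and 7.09% of all counts on nuclear reading frames at 20 min, and 1.85% and 1.77% at 60 min. The features that rose started low, with medians of 48.6 and 42.7 at 20 min against 164 and 125 at 60 min. Their protein-coding IDs held 0.595% and 0.656% of the reading frame counts at 20 min and 1.82% and 1.79% at 60 min. By the later time, both sets thus took nearly the same share of the reading frame counts. These values describe features chosen for their change. Of the 150, 48 of the 50 rises and 96 of the 100 falls moved in the called direction in both replicates. For this count, libraries of the same number were set together. They are the libraries that made the calls, so the agreement is no separate support.

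The share of features called grew with their level. Among the 1015 features with a mean of up to 10 normalized counts, 0.197% were called, and among the 266 with a mean above 1000, 7.89% were, with 5 rises and 16 falls. The bins between them had 2.08% (above 10 and up to 50), 2.64% (up to 200) and 3.47% (up to 1000). Falls outnumbered rises in each bin above 10.

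The largest falls by the naming rule were those of the nuclear reading frames YLR377C and YNL117W, IDs whose letters place them on the right arm of chromosome XII and the left arm of chromosome XIV. YLR377C had 3805 and 2418 normalized counts at 20 min and 40.5 and 29.0 at 60 min. The level was 89.8-fold lower at 60 min, a log2 fold change of -6.49 ± 0.49 (SE; adjusted p = 3.34e-36). YNL117W had 1227 and 577 at 20 min and 15.5 and 9.48 at 60 min. It was 72.9-fold lower (log2 fold change -6.19 ± 0.49, adjusted p = 3.76e-33). For both IDs, the lower library at 20 min was far above the higher library at 60 min. Both fell in each of the 13 alternative fits, with log2 fold changes from -6.78 to -6.13 for YLR377C and from -6.64 to -5.55 for YNL117W.

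Of the rises, the largest by the naming rule were those of YNL065W and YIL053W, both named as reading frames of left arms. YNL065W had 9.71 and 15.3 normalized counts at 20 min and 92.9 and 107 at 60 min. The 7.70-fold rise was 2.94 ± 0.45 on the log2 scale (adjusted p = 2.11e-08). YIL053W had 17.3 and 11.05 at 20 min and 109 and 75.3 at 60 min. This rise was 6.67-fold (log2 fold change 2.74 ± 0.45, adjusted p = 1.61e-07). The times did not overlap for either ID. Both rose in every alternative fit that gave them an adjusted p.

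**Figure D2:**
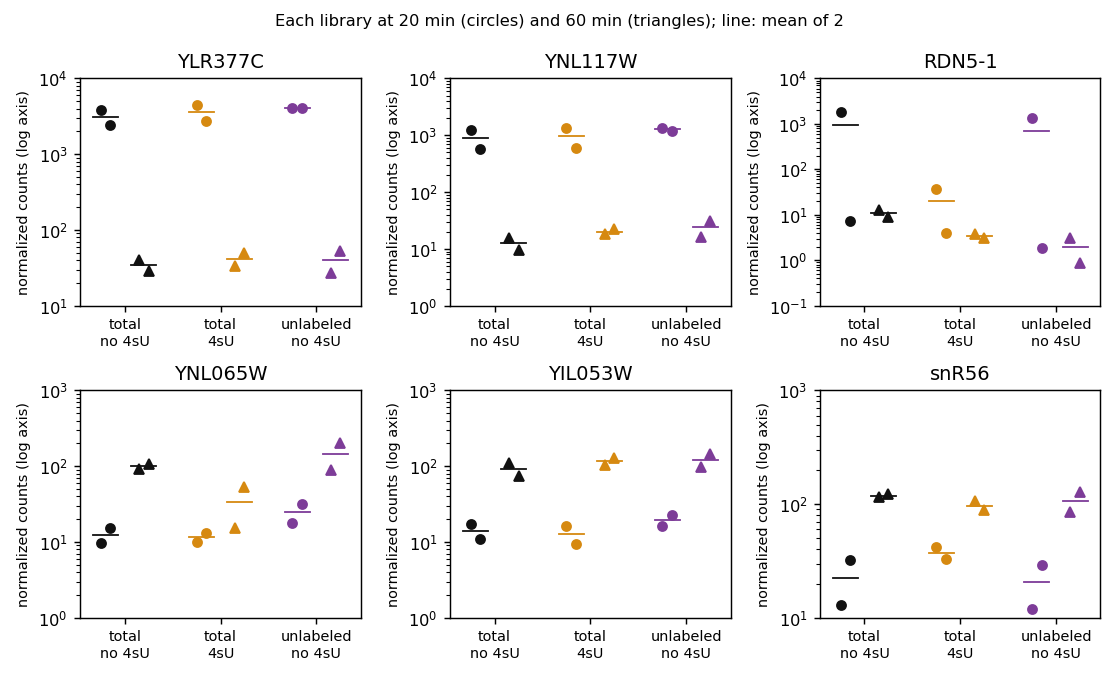
Normalized counts (log axis) of 6 features in each library of total RNA without 4sU (black), total RNA with 4sU (orange) and unlabeled RNA without 4sU (purple), with circles for 20 min, triangles for 60 min and a line at the mean of 2 libraries. YLR377C and YNL117W are lower and YIL053W and snR56 higher in both libraries at 60 min than in both at 20 min in all 3 sets, although the rises of YIL053W and snR56 did not pass the test in unlabeled RNA (adjusted p = 0.0613 and 0.167); YNL065W reaches 15.3 and 52.6 at 60 min with 4sU, and RDN5-1 is high in single libraries of 20 min.

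The time comparison was set beside that in total RNA with 4sU, taken at the same times and sharing no library with it. By the protocol, flasks with and without 4sU were split from the same cultures, and 1 fit held both. The comparisons are therefore not independent. With 4sU 22 features rose (0.362%) and 130 fell (2.14%), a split that became 191 and 267 with TMM scaling. Of the 50 features that rose without 4sU, 47 had a positive log2 fold change with 4sU and 13 rose there too, which is 26.0% of the 50 and 59.1% of the 22. Of the 100 that fell, 93 had a negative value with 4sU and 70 fell there, which is 70.0% of the 100 and 53.8% of the 130. No feature called in both comparisons moved in opposite directions. The median log2 fold change of the falls was -2.05 without and -1.80 with 4sU, and that of the rises was 1.61 without and 0.85 with 4sU. The medians without 4sU belong to features chosen for their change in those libraries.

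YLR377C fell with 4sU from 4510 and 2747 to 33.7 and 48.9, a log2 fold change of -6.48 ± 0.49 beside -6.49 without. YIL053W rose with 4sU from 16.1 and 9.37 to 104 and 127. YNL065W was at 9.85 and 13.3 at 20 min with 4sU and at 15.3 and 52.6 at 60 min, and its log2 fold change of 1.46 ± 0.47 did not pass the test (adjusted p = 0.0622). Without 4sU its libraries at 60 min lay above both of those values. The difference between these changes of YNL065W, 1.48 ± 0.66 on the log2 scale, did not pass the test either (adjusted p = 0.959).

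**Figure D3:**
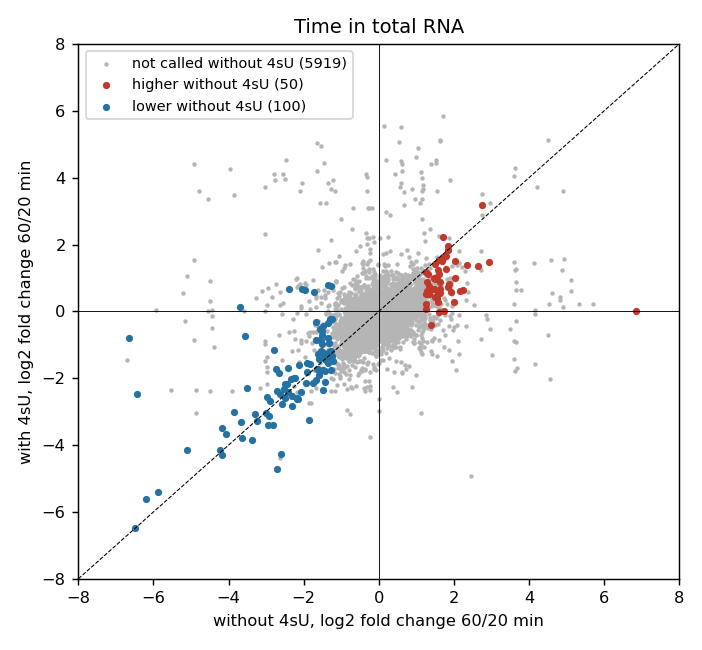
Log2 fold change between 60 and 20 min in total RNA with 4sU (vertical axis) against that without 4sU (horizontal axis) for 6069 features, with a dashed line of equality and the features called without 4sU in red (50 rises) and blue (100 falls). The blue points have a median of -2.05 across and -1.80 up, and the red points a median of 1.61 across and 0.85 up.

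In the test of the difference itself, the interaction of 4sU and time in total RNA, 12 features passed (0.198%). For 11 of them the log2 fold change was lower without 4sU than with it. Of the 12, 6 were reading frames with a letter suffix in the ID, or 50.0% where such IDs were 5.31% of all features, and 7 had replicates more than 5-fold apart in at least 1 of the 4 groups on the scale of normalized counts + 1. YPL257W-B had 7.55 and 10.4 normalized counts at 20 min and 22.9 and 5.02 at 60 min without 4sU. With 4sU it had 0.896 and 16.4, then 1.63 and 613, so that 1 library set its interaction of -4.54 ± 0.71 (adjusted p = 1.1e-06). YOR142W-B, which alone had the opposite sign, was at 14.7 to 32.4 in the libraries without 4sU and at 101.2 in 1 library with 4sU at 20 min, against 7.02 to 10.05 in the other 3. Its interaction was 2.90 ± 0.66 (adjusted p = 0.00859). Reads that match several places were counted, so the values of repeated sequences are uncertain. DESeq2 with the S. pombe factors called 0 features in this test, with 128 at an unadjusted p under 0.05, against 173 in the edgeR fit.

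By the protocol, the unlabeled fraction without 4sU is RNA of the same cultures that passed through the pull-down, so it is no independent set of cells. In this fraction 1 feature rose (0.0165%) and 33 fell (0.544%), or 39 and 96 with TMM scaling. With the replicate number as a block 46 rose and 250 fell, although no label ties this number to a culture. Of the 33, 31 were among the 100 features that fell in total RNA, or 93.9% of the 33 and 31.0% of the 100. The 100 had a median log2 fold change of -1.95 there, with 97 negative, where all features had a median of -0.13. The 50 rises had a median of 1.13, with 47 positive. With S. pombe scaling and no replicate block, 0 of the 50 were called by edgeR, and 19 were higher at an unadjusted p under 0.05. YLR377C had 4057 and 4066 at 20 min and 26.7 and 52.8 at 60 min in unlabeled RNA. YNL065W had 18.0 and 31.9 at 20 min and 88.8 and 204 at 60 min there, without passing the test (adjusted p = 0.0836). At 60 min the replicates of this fraction were further apart in scale than those of total RNA, with normalized totals of 2.77 M and 4.59 M. At 20 min they were closer than those of total RNA, with 4.76 M and 4.90 M.

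Features of the mitochondrial genome and nuclear reading frames made up most counts of each library. Nuclear reading frames held 34.7% and 35.0% of the counts at 20 min and 41.6% and 38.3% at 60 min. Mitochondrial features held 42.2% and 42.4% at 20 min and 36.1% and 41.9% at 60 min. The times did not overlap in either share, but with 2 against 2 libraries an exact two-sided permutation test cannot give a p below 0.333. Most mitochondrial counts of each library lay on Q0158 and Q0020. In replicate 1 at 20 min these held 1399770 and 501902 of the 2.00 M normalized counts of the class. The mitochondrial share thus describes mainly these features and not mitochondrial transcripts at large. The snR features held 8.45% to 9.82%, the ribosomal DNA features 1.10% to 2.39%, and tRNAs at most 0.0135%.

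**Figure D4:**
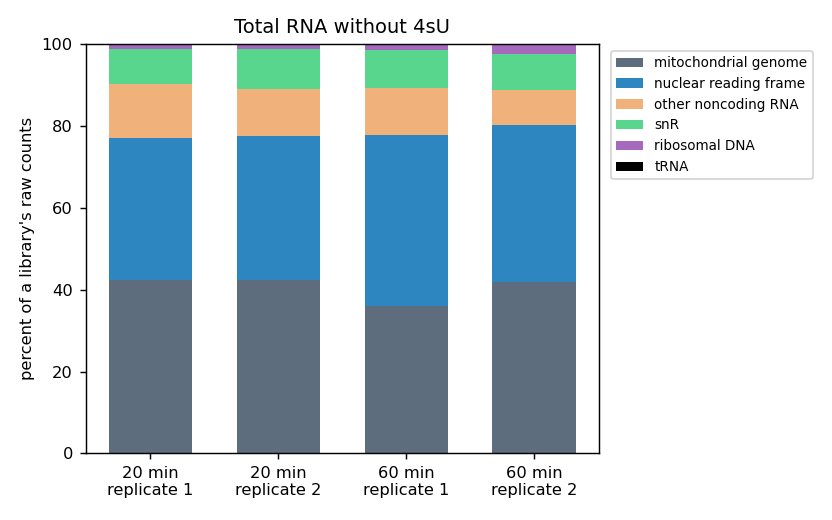
Percent of each library's raw counts on 6 classes of features in the 4 libraries of total RNA without 4sU. Nuclear reading frames take 34.7% and 35.0% at 20 min and 41.6% and 38.3% at 60 min, and the tRNA share is too small to see.

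Of 20 mitochondrial features tested, 0 were called by edgeR with all libraries or by DESeq2, and 0 had an unadjusted p under 0.05 in edgeR, as 697 of all features had. Without replicate 2 at 20 min, edgeR called 1 rise. Their median log2 fold change was -0.23 against 0.05 over all features. The most abundant, Q0158, had 1399770 and 945299 normalized counts at 20 min and 919143 and 956110 at 60 min (log2 fold change -0.32 ± 0.39, adjusted p = 0.831). Q0020 had 501902 and 269395, then 270610 and 304407 (-0.42 ± 0.39, adjusted p = 0.756). For both, 1 library at 20 min was high and the other was near the 60 min libraries. The sign of the mitochondrial median changed to 0.04 without replicate 2 at 20 min.

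Of 72 tRNA features tested, 0 were called by edgeR with all libraries or by DESeq2, and 4 had an unadjusted p under 0.05 in edgeR. Without replicate 2 at 20 min, edgeR called 1 fall. The median log2 fold change was -0.07 and ran from -0.19 to 0.24 over the alternatives. The class was thinly covered, with a median level of 2.05 normalized counts. The most abundant were tP(UGG)Q, a mitochondrial proline tRNA, with 45.3 and 62.6 at 20 min and 64.9 and 70.9 at 60 min, and tE(UUC)Q, a mitochondrial glutamate tRNA, with 21.6 and 60.2, then 38.3 and 45.2. The levels of tE(UUC)Q overlapped between the times.

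The snoRNAs gave a more distinct pattern. Box C/D snoRNAs guide ribose methylation of ribosomal RNA, and box H/ACA snoRNAs guide its pseudouridylation. This division of the snR features was made after their values were seen, so it is a description. Of 39 box C/D snoRNAs tested, 31 had a positive log2 fold change (79.5%, against 54.0% of all features), with a median of 0.67, and 4 rose in the test (10.3%, against 0.824%). In 22 of the 39, both libraries at 60 min were above both at 20 min, a share of 56.4% where 21.8% of all features had this order, and 3 had the reverse order (7.69%, against 13.7%). Of 27 box H/ACA snoRNAs, 6 had a positive log2 fold change, with a median of -0.14, 0 were called or had an unadjusted p under 0.05, and 5 were lower in both libraries at 60 min than in both at 20 min (18.5%). The classes differed in level, with 28 of the C/D and 1 of the H/ACA snoRNAs under a mean of 50 normalized counts. Among the 11 C/D snoRNAs with a mean of at least 50, the median log2 fold change was 0.26. How far the level of a snoRNA bears on its change was not tested. Over 12 alternative fits the median ran from 0.39 to 0.70 for the C/D snoRNAs and from -0.26 to -0.04 for the H/ACA snoRNAs, of which DESeq2 with its own size factors called 4 falls, edgeR with TMM scaling 1, and TMM scaling with a replicate block 7. The median of all features moved between these fits as well. Relative to it, the C/D median ran from 0.25 to 0.79, beside 0.61 in the fit reported, and the H/ACA median from -0.42 to -0.06. The C/D value was lowest without replicate 1 at 20 min.

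The 4 snoRNAs that rose were all of the C/D type. snR56 had 12.9 and 31.9 normalized counts at 20 min and 116 and 122 at 60 min (log2 fold change 2.34 ± 0.42, adjusted p = 3.31e-06). snR47 had 22.7 and 12.3, then 58.2 and 58.6 (log2 fold change 1.79 ± 0.45, adjusted p = 0.0051). The levels of snR13 were 7.55 and 6.14, then 32.4 and 19.5 (1.93 ± 0.56, adjusted p = 0.0261). Those of snR39B were 2.16 and 4.91, then 16.2 and 17.9 (2.15 ± 0.66, adjusted p = 0.044). In each of the 4, both libraries at 60 min were above both at 20 min. The rise of snR56 passed the test in all 12 alternative fits and that of snR47 in 9 of 12. The calls of snR13 and snR39B rest on few counts and were lost in 5 of 10 and 6 of 10 alternatives that gave an adjusted p.

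With 4sU, snR56 was at 42.1 and 32.8 at 20 min and 106 and 88.0 at 60 min (log2 fold change 1.38 ± 0.40, adjusted p = 0.0241). In unlabeled RNA without 4sU it was at 11.98 and 29.1, then 84.9 and 127 (2.39 ± 0.74, adjusted p = 0.167). The median log2 fold change of the 39 C/D snoRNAs was 0.30 with 4sU and 0.42 in unlabeled RNA, where all features had medians of -0.21 and -0.13. For the 27 H/ACA snoRNAs it was -0.15 and -0.51. Over the C/D snoRNAs, the median level in total RNA without 4sU was 7.55 and 7.37 at 20 min and 17.0 and 17.9 at 60 min. With 4sU it was 15.2 and 11.7, then 18.7 and 23.8.

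**Figure D5:**
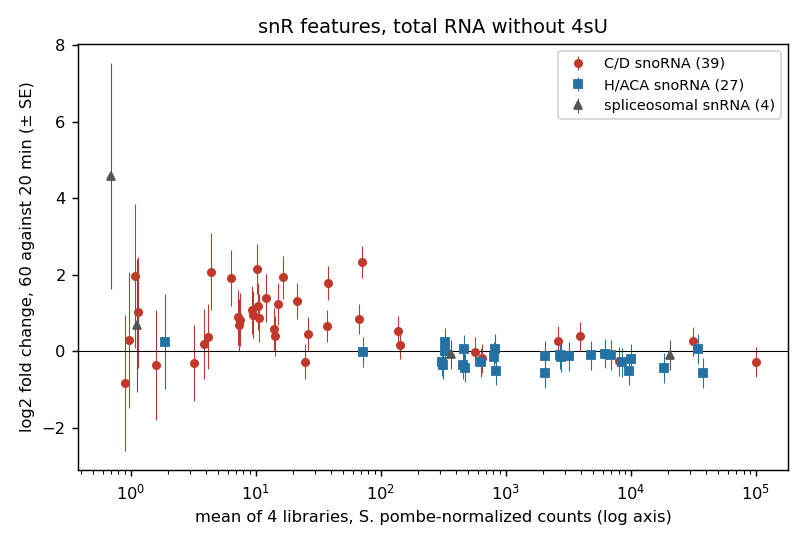
Log2 fold change between 60 and 20 min (± SE) of 70 snR features in total RNA without 4sU against their mean level (log axis), with box C/D snoRNAs in red, box H/ACA snoRNAs in blue and spliceosomal snRNAs in gray. Most C/D snoRNAs lie to the left and above 0, and the abundant features of both types lie near 0.

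Abundant members of both types did not pass the test. snR17a, the main copy of the U3 snoRNA needed to process the ribosomal RNA precursor, had 140186 and 81471 at 20 min and 112401 and 70024 at 60 min (log2 fold change -0.28 ± 0.39, adjusted p = 0.852). snR30, an H/ACA snoRNA needed for processing of the same precursor, had 57526 and 33346, then 34559 and 26678 (-0.57 ± 0.39, adjusted p = 0.634). Both were highest in replicate 1 at 20 min. These snoRNAs, and the other noncoding RNAs named, were picked for their known roles after their values were seen.

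Of 13 other noncoding RNAs tested, 0 were called by edgeR with S. pombe scaling, 0 had an unadjusted p under 0.05, and 9 had a negative log2 fold change. DESeq2 with its own size factors called 1 fall, as did edgeR with TMM scaling and a replicate block. The median of -0.33 became 0.05 without replicate 1 at 20 min. SCR1, the RNA of the signal recognition particle, had 385628 and 224270 at 20 min and 242854 and 146004 at 60 min (-0.65 ± 0.39, adjusted p = 0.557). LSR1, the U2 RNA of the spliceosome, had 192734 and 95408, then 121127 and 96105 (-0.41 ± 0.39, adjusted p = 0.771). RPR1, the RNA of RNase P, gave -0.41 ± 0.39 and NME1, the RNA of RNase MRP, gave -0.33 ± 0.39. Among noncoding transcripts that overlap promoters, SRG1 had 91.7 and 64.5, then 74.5 and 76.4, and ICR1 had 18.3 and 14.1, then 14.7 and 14.5. Neither passed the test, and the times overlapped for both. For IRT1, another such transcript, the times did not overlap, with 15.1 and 11.05 at 20 min and 8.85 and 6.14 at 60 min. Its log2 fold change of -0.79 ± 0.65 did not pass the test (adjusted p = 0.715). It ran from -1.06 to -0.54 over 11 alternatives, of which 0 called it. The value was -1.76 ± 0.63 in total RNA with thiouracil and -1.77 ± 0.85 in unlabeled RNA without it. Neither of these passed the test.

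Features of the ribosomal DNA repeat were tested in 11 cases, with 1 rise and 2 falls, all of which rested on unlike replicates. Near-identical copies of these genes can share reads. RDN5-1, a gene of the 5S ribosomal RNA, had 1844 normalized counts in replicate 1 at 20 min and 7.37, 12.5 and 8.93 in the other 3 libraries. Its log2 fold change of -6.43 ± 0.49 (adjusted p = 3.34e-36) came from that library, and without it the value was 0.52 (adjusted p = 0.764). The unlabeled library of the same number, time and treatment also held it at 1364, with 0.852 to 3.14 in the other 3. Its log2 fold change was -2.46 ± 0.51 with 4sU, where replicate 1 at 20 min had 36.7. The fall of RDN5-5, another copy, from 89.6 and 1.84 to 9.58 and 17.3 became a log2 fold change of 2.86 (adjusted p = 0.0602) without that library. In all, 6 features with at least 50 normalized counts in replicate 1 at 20 min exceeded 5 times their level in each other library, 5 of them called. In the other 3 libraries 0 features did so. RDN37-1, which spans the precursor of the large ribosomal RNAs, had 13836 and 5632 at 20 min and 11689 and 36440 at 60 min, so that the replicates moved in opposite directions although its log2 fold change of 1.31 ± 0.39 was called (adjusted p = 0.0417). RDN37-2, another copy, had 11324.5 and 8878, then 16242 and 17819, so that its times did not overlap. Its log2 fold change of 0.75 ± 0.39 did not pass the test (adjusted p = 0.449), and 2 of 12 alternatives called it. The external spacers cut from this precursor did not pass the test, with ETS1-1 at 15438 and 9764, then 11655 and 11310 (-0.13 ± 0.39, adjusted p = 0.939). ETS2-1 and ETS2-2 were lower in both libraries at 60 min than in both at 20 min. Their log2 fold changes were -0.54 ± 0.38 (adjusted p = 0.655) and -0.65 ± 0.38 (adjusted p = 0.531). Of 12 alternatives, 0 called ETS2-1 and 1 called ETS2-2.

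The study pairs 9 IDs with gene names in examples of its binding fits, and 0 of these genes were called by edgeR, with 2 at an unadjusted p under 0.05. Their log2 fold changes ran from -0.22 to 1.40, with adjusted p-values from 0.226 to 0.984. RPS24A (YER074W), a protein of the small ribosomal subunit, had 364 and 306 normalized counts at 20 min and 813 and 483 at 60 min. Its log2 fold change was 0.95 ± 0.38 (adjusted p = 0.226). The times did not overlap, and 4 of 13 alternatives called the rise, among them TMM scaling (0.85, adjusted p = 0.0201). With 4sU its levels were 782 and 498, then 883 and 828. In unlabeled RNA without 4sU they were 1080 and 893, then 707 and 1020, which is no rise (-0.19 ± 0.63). CYS4 (YGR155W), the cystathionine beta-synthase, had 241 and 161, then 285 and 187 (0.24 ± 0.37, adjusted p = 0.87). TOS3 (YGL179C), a kinase that activates the carbon source sensor Snf1, was at 9.71 and 2.46, then 17.0 and 12.3 (1.40 ± 0.65, adjusted p = 0.365). MEC3 (YLR288C), of the DNA damage checkpoint clamp, had 125 and 69.4, then 99.5 and 97.6 (0.03 ± 0.38, adjusted p = 0.984).

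The study also sorted genes into 10 clusters by how long transcription factors stay at their promoters, a measure not made from these libraries. Of 1383 clustered genes tested, 6 rose (0.434%, against 0.824% of all features) and 22 fell (1.59%, against 1.65%), and their median log2 fold change was -0.01. The medians of clusters 2 to 10 lay between -0.11 and 0.02, and cluster 6 had the most falls, 7 of 197 genes or 3.55%, followed in number by clusters 7 and 10 with 4 each, the latter 4.30% of its genes. Cluster 1 had a median of 0.31 over 94 genes, of which 76 were positive (80.9%, against 54.0% of all features), 2 rose (2.13%, against 0.824%) and 0 fell. With at least 10 counts required in every library, 0 of 88 cluster 1 genes were called, and their median was 0.28. The fit on nuclear reading frames alone held 86 of the 94, the others having IDs of other kinds. Relative to the median of all features, cluster 1 was higher by 0.23 to 0.30 in all 13 alternative fits, although its median itself went down to 0.04 without replicate 2 at 20 min. With TMM scaling 13 of its genes rose (13.8%) and 2 fell (2.13%), where 3.94% of all features rose and 5.49% fell. With 4sU its median was -0.09 where all features had -0.21, and in unlabeled RNA it was -0.12 where all features had -0.13.

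The ID of a nuclear reading frame gives its chromosome, its arm and its order along the arm from the centromere. Among 5561 reading frames without a suffix, 43 rose and 91 fell (1.64%). The 20 tested IDs nearest the end of each of the 32 arms, 640 in all, included 6 rises and 24 falls, so that 3.75% of them fell. Chromosome VI had the highest share called, with 5 rises and 2 falls among 105 IDs, and chromosome IV the lowest, with 2 rises and 6 falls among 723. Of 5074 pairs of neighbouring IDs, 232 held at least 1 called ID. In 5 pairs both fell, in 0 both rose, and in 4 the neighbours moved in opposite directions. These arrangements were examined after the calls were known and carry no test.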

How the data were processed

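The authors aligned paired-end reads with HISAT2 2.0.4 to S. cerevisiae (R64) and S. pombe (ASM294v2) and counted reads per gene with featureCounts, strand-specifically and with multi-mapping reads included. They deposited raw counts for 7127 features in 24 libraries. They also deposited a signal table, these counts divided by each library's S. pombe reads over 2000000. Both times come from shared cultures by the protocol, but no label ties replicate numbers to cultures, so p-values speak only for these samples. Those of edgeR rest on a spread estimated jointly over features and over all groups of a fit. This spread follows the replicates of a single feature only loosely. RDN5-1, with 1844 and 7.37 normalized counts at 20 min, had an SE of 0.49, and YLR377C, with 3805 and 2418, had 0.49 too.

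Counts were tested here with edgeR 4.0.16 in R 4.3.3 (quasi-likelihood test, Benjamini-Hochberg adjustment, threshold 0.05) with S. pombe totals as library sizes. The fit held the 4 groups of total RNA, and for the unlabeled comparison those of unlabeled RNA. Each SE given was derived from the test, as the absolute log2 fold change divided by the square root of its F statistic. Of the 7127 features, the 6069 that were at 0 in no more than 50% of libraries were kept. DESeq2 1.42.0, TMM scaling, other filters, a replicate block and each library left out were alternatives, and a fit on nuclear reading frames alone was added after seeing the data. Summaries were made in Python 3.11.15. The fits were tested on simulated data. Counting error is small beside the spread of 2 replicates for all but the thinly covered features.

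Named IDs came from the 12 largest rises and falls among called features whose normalized counts averaged 50 or more and moved alike in both replicates, of which the first 2 per direction are printed. For lists, up to 4 called members, or else the 2 most abundant, are named, and from the interaction up to 3 per direction. Other features were chosen after their values were seen. The comparison and lists were chosen with earlier results of these data known. Lists of gene symbols (galactose use, carbon metabolism, ribosome, stress, mating and others) were not used here, since the count files and the gene table used here do not pair these IDs with names, and only lists defined by ID were used. The study's example fits pair 9 IDs with names. No IDs mark Ty elements.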

Additional observations from a re-analysis of the deposited data

Results flagged for a closer look

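The change between 60 and 20 min differed between total RNA without and with 4sU for 12 features in the test of the interaction. The named ones were YPL257W-B, with a difference of -4.54 on the log2 scale, RDN5-1, with -3.97, and YOR142W-B, with 2.90. Within total RNA, a single library with 4sU lay far above the other 7 for YPL257W-B and YOR142W-B, and a single library without 4sU for RDN5-1. Both suffixed IDs were also high in unlabeled RNA without 4sU at 20 min, with 330 and 260 normalized counts for YPL257W-B and 77.9 and 129 for YOR142W-B. The part of these libraries in the other interaction calls was not tested feature by feature.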

How the results depend on the processing

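Time in total RNA without 4sU gave 150 calls, 93 when only its own 4 libraries were fitted, and 67 to 230 with a library left out. Of the 150, 41 kept their direction and call in each of the 4 fits without a library (9 rises, 32 falls), and 36 did so in all 12 alternatives fitted over all features (6 rises, 30 falls). Scaling without S. pombe called more features, namely 572 with TMM, 621 with DESeq2's own size factors and 593 with TMM on nuclear reading frames alone. Of the 150, 141 were called in the same direction with TMM, where 41.8% of the calls were rises against 33.3%, and no called feature changed sign under a change of scaling. Fits without a 20 min library set the balance: 61.8% of the calls were rises without replicate 1 at 20 min and 13.04% without replicate 2. Without replicate 1 at 20 min, 4 of the 150 changed sign. The log2 fold change of RDN5-1 ran from -7.44 to 0.52 and that of RDN5-5 from -2.71 to 2.86 with a library left out. YLR377C, YNL117W, YNL065W, YIL053W and snR56 kept their calls in each alternative that gave an adjusted p.

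With 4sU, time gave 152 calls, 458 with TMM, 509 with DESeq2's own factors, 483 with TMM on nuclear reading frames, and 55 (without replicate 1 at 60 min) to 216 with a library left out. In unlabeled RNA it gave 34 calls, 135 with TMM, 182 with DESeq2's own factors, 148 with TMM on nuclear reading frames, and 8 (without replicate 1 at 60 min) to 24 with a library left out. The interaction gave 12 calls, 7 with TMM, 7 with at least 10 counts in every library, 7 with TMM on nuclear reading frames, 0 with DESeq2 and S. pombe factors, 23 with DESeq2's own factors, and 2 to 21 with a library left out. TMM moved the median log2 fold change of all features from -0.21 to 0.05 with 4sU and from 0.31 to -0.01 in the interaction.

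As a replicate block, the replicate number gave 210 calls without 4sU, 279 with 4sU, 296 in unlabeled RNA and 13 for the interaction, and with TMM added 1106, 1050, 363 and 41. Deviations of same-numbered libraries correlated across features at 0.126 without 4sU, 0.193 with 4sU and 0.352 in unlabeled RNA. With only 2 numbers and no label for a shared culture, the number was not taken as a pairing. The cause of these differences was not tested. Low counts limit the tRNAs and most box C/D snoRNAs.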
